A study of Homo sapiens with 36 samples.

Results

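The genes described here are 10 cytosolic heat shock genes, picked by symbol from the 60591 genes of the mRNA count table: HSF1, HSPA1A, HSPA1B, HSPA6, HSPA8, HSPH1, DNAJB1, BAG3, HSPB1 and HSP90AA1. They were followed in 18 mRNA libraries of 2 human colorectal cancer lines, Caco-2 and HT-29, with 3 biological replicates in each of 6 groups. Both lines were kept for 24 h with CoCl2 at 300 µM, with an oxyquinoline derivative (OD) at 5 µM, or as a control with 0.5 µl of dimethyl sulfoxide (DMSO) per ml of medium. Both agents act on the enzymes that tag the alpha subunits of hypoxia-inducible factor (HIF) for degradation, and were used to mimic hypoxia chemically. Caco-2 had been differentiated for 21 days in minimal essential medium and HT-29 was grown in McCoy's 5A, so line, medium and culture state cannot be told apart. The labels name DMSO for OD and the control and water for the CoCl2 stock, whereas the methods put DMSO in the CoCl2 medium too and give it at another concentration than the labels, so a solvent difference is unsettled.

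Heat shock proteins are molecular chaperones: they hold, refold or hand over proteins that have lost their shape. The transcription factor HSF1 is kept inactive by chaperones and, when unfolded proteins accumulate, forms trimers that bind heat shock elements, arrays of inverted GAA units, and switch on the inducible chaperone genes. The HSP70 proteins (HSPA1A, HSPA1B, HSPA6, HSPA8) work with a J-domain partner that stimulates ATP hydrolysis (DNAJB1) and with nucleotide exchange factors that release the client (HSPH1, BAG3), while HSPB1 holds unfolded clients without ATP and HSP90AA1 matures kinases and receptors. Intestinal epithelium is known to express inducible HSP70 and HSPB1 in contact with luminal bacteria.

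The stretches of DNA before the transcription starts are shown because the genes rose together with CoCl2, as described further on, and because such windows can hold the letters that HSF1 is known to bind. RefSeq on GRCh38.p14 gave 250 bases before the start for 9 of the 10 genes, with 3 starts for DNAJB1 and 2 for HSP90AA1, which makes 12 windows. Capitals mark 2 adjoining units of a heat shock element (GAANNTTC or TTCNNGAA) or 3 units in a row, and both strands were searched.
HSPA6 (chr1:161524290-161524539, plus strand): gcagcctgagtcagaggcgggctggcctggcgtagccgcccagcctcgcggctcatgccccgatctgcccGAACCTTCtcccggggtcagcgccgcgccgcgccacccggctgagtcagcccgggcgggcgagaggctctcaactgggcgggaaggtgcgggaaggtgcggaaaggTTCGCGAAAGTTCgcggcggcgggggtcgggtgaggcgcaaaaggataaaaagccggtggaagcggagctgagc
HSPA8 (chr11:123062137-123062386, minus strand): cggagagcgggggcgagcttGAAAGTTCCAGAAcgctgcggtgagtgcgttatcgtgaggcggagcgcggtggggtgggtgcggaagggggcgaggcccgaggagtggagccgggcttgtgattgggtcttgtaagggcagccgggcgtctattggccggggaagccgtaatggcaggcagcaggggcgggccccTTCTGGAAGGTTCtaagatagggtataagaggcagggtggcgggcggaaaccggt
HSP90AA1 (chr14:102087045-102087294, minus strand): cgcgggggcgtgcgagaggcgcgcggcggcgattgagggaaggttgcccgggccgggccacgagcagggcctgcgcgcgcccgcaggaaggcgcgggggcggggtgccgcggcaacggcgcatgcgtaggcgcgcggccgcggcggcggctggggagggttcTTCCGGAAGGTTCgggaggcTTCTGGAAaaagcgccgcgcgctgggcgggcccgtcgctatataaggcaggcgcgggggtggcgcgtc
HSPA1A (chr6:31815293-31815542, plus strand): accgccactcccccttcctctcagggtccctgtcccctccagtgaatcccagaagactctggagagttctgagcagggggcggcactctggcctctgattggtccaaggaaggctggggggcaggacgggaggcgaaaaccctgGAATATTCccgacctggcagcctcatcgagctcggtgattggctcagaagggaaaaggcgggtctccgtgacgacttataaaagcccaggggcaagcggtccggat
HSPA1B (chr6:31827488-31827737, plus strand): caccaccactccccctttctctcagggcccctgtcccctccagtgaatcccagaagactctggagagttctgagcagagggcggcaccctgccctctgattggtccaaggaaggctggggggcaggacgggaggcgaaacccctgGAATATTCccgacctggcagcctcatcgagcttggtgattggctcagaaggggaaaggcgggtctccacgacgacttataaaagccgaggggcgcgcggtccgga
DNAJB1 (chr19:14518398-14518647, minus strand): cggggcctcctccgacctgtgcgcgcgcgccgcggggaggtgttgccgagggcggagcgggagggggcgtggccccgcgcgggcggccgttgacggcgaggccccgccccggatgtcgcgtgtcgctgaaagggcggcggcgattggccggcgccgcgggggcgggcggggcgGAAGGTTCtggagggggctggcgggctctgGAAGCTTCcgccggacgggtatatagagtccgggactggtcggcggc
HSPB1 (chr7:76302423-76302672, plus strand): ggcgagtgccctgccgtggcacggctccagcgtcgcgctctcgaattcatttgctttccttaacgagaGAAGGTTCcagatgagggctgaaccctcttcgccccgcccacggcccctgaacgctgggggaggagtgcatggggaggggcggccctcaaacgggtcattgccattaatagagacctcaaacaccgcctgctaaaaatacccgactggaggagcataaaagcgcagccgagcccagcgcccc
Of the 12 windows, 3 held a run of 3 units, against 0.441% of all 35116 windows of this length, and these belonged to HSPA6, HSPA8 (at 2 places) and the downstream start of HSP90AA1. A pair of units, which any run of 3 contains, stood in 7 of the 12 windows and in 11.6% of all. Only windows with a match are printed. The windows of HSPH1 and BAG3, which also rose with CoCl2, held neither form. Nor did the other starts of DNAJB1 and HSP90AA1. The paired windows of HSPA1A and HSPA1B share the letters GAATATTC, which begin at -106 and -105 counted from the start. For the core of a hypoxia response element, only the letters ACGTG or CACGT were searched. They were in 0 of the 12 windows and in 18.5% of all. The form GCGTG was not searched. Read on either strand, it stands in the BAG3 window and in every window of HSP90AA1 and DNAJB1. A match is a description of letters and not a bound site, and a window without a match says only that these letters are not in it.

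Levels are given in CPM (counts scaled to depth), with depth corrected within a line by TMM, the trimmed mean of M values. The libraries held 12925719 to 22332639 counts. The epithelial markers EPCAM and KRT8 were abundant in both lines, with at least 7257 and 16059 counts in a library. In Caco-2 the enterocyte genes SI, APOA4 and ALPI had 1131 to 4759, 143 to 906 and 193 to 386 counts. The epithelial genes VIL1, CDX2, KRT20 and CEACAM5 had 5581 to 14595, 2142 to 4932, 82 to 252 and 270 to 949 there. In HT-29, KRT20 had 4851 to 18277 counts, VIL1 427 to 5383, CEACAM5 92 to 1593, SI 90 to 350 and CDX2 58 to 311, while ALPI and APOA4 had 0 to 2. FABP2 stayed at or below 27 counts in either line. Of 8 markers of leukocytes, endothelium and fibroblasts, PTPRC and DCN reached at most 3 counts, and COL1A1 was the highest with 202 to 405 counts in Caco-2 and 23 to 116 in HT-29. PECAM1 had 28 to 172 and 3 to 35 counts, CD14 32 to 74 and 8 to 49, and CD3E, VWF and COL3A1 at most 19. The summed level of these 8 markers was 42.6 to 50.4 CPM in Caco-2 controls, 21.2 to 23.1 with CoCl2 and 24.3 to 30.9 with OD. The same sums in HT-29 were 5.32 to 6.96, 2.48 to 3.12 and 8.65 to 10.8. Their part in the results was not tested.

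**Figure D1:**
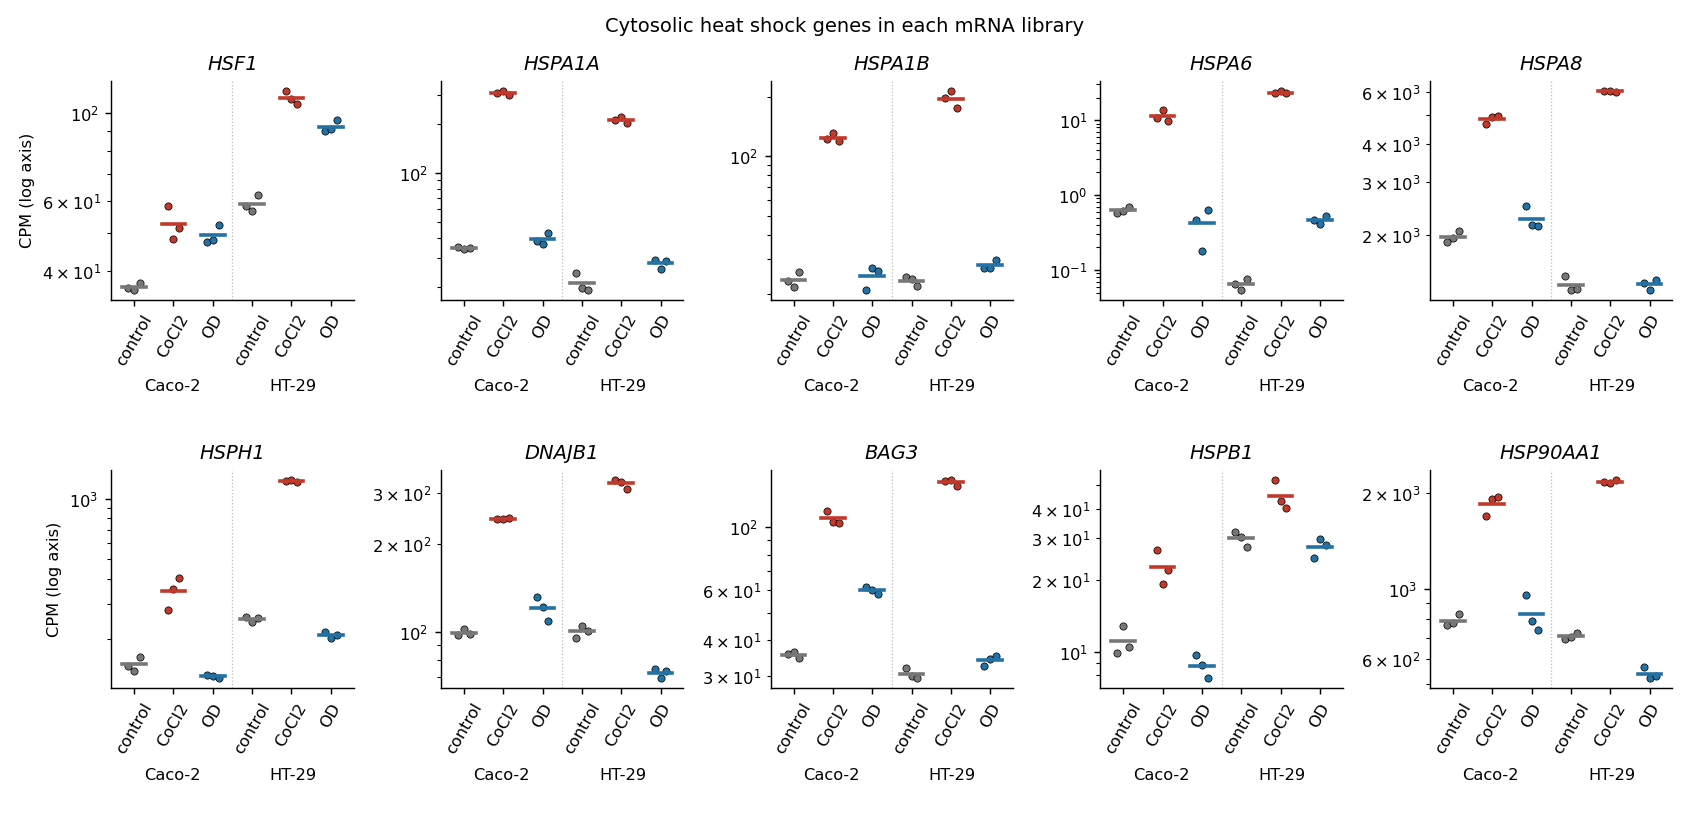
CPM (log axis, own range in each panel) of the 10 genes in each of the 18 libraries, grouped by line and treatment; points are libraries and bars are group means. The CoCl2 libraries lie above the controls of the same line for all 10 genes, and HSPA6 in HT-29 controls rests on 1 or 2 counts per library.

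The first question was how each agent changed these genes against control. On these TMM-scaled levels, all 10 genes in both lines were higher with CoCl2 in every library than in any control library. This depends on scaling for HSPB1 in HT-29, whose log2 fold change was -0.03 with plain library sizes. With OD the picture was mixed: 5 genes in Caco-2 and 5 in HT-29 lay above the controls in every library, 2 and 3 lay below, and the others overlapped. Several of the OD rises depend on scaling too. With plain library sizes, HSPA1A, HSPA8 and DNAJB1 in Caco-2 and HSPA1A, HSPA1B and BAG3 in HT-29 overlapped the controls. How many of all genes lay apart from the controls with either agent was not counted. The 10 genes together took 0.343% to 0.364% of a library's counts in Caco-2 controls, 0.671% to 0.730% with CoCl2 and 0.338% to 0.378% with OD. In HT-29 they took 0.300% to 0.321%, 0.801% to 0.812% and 0.255% to 0.266%. In bulk RNA, a change in the number of cells expressing a gene and a change in RNA per cell cannot be told apart.

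Tests were made with edgeR's quasi-likelihood test, with p-values adjusted over all genes tested by the Benjamini-Hochberg method (the FDR). A gene counted as called at an FDR under 0.05 with a log2 fold change beyond 1, and "rose" or "fell" is used for an FDR under 0.05. With CoCl2 in Caco-2, 9 of the 10 genes were called higher, where 9.13% of all 16034 genes were, and all 10 rose, where 31.6% did. In HT-29, CoCl2 called 8 higher against 17.4% of 15812 genes, and all 10 rose against 40.6%. With OD in Caco-2, 0 were called, where 4.42% of all genes were called higher and 7.27% lower, and 4 rose, against 25.6%; DESeq2 and limma-trend likewise called 0, and at an unadjusted p under 0.05 edgeR had 5 higher and 1 lower. OD in HT-29 called 1 higher and 0 lower, against 9.45% and 7.58% of all genes, and 5 rose and 3 fell, against 34.7% and 34.1%. All 10 genes passed the filter on low counts, but HSPA6 did so only through its CoCl2 libraries, so that its calls are no support. Among the other 9 genes the calls were 8 and 7 with CoCl2 in Caco-2 and HT-29, 0 with OD in either line, and 7 in each line between the agents. With plain library sizes in place of TMM, 2 of the 10 genes rose and 2 fell with OD in Caco-2, and 3 rose and 5 fell in HT-29.

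The median log2 fold change of the 10 genes was 1.30 with CoCl2 in Caco-2 and 2.19 in HT-29, against medians of -0.03 in both over all genes tested. HSPA6, whose HT-29 controls are under the floor of 3 counts, had the highest value there. Without HSPA6 the CoCl2 medians were 1.30 in Caco-2 and 2.14 in HT-29. For OD the median of the 10 genes was 0.13 in Caco-2 and 0.09 in HT-29, against -0.02 and 0.006 over all genes. Without HSPA6 the OD medians were 0.18 in Caco-2 and 0.008 in HT-29. CoCl2 and OD were compared with the same 3 control libraries in each line. The size of the CoCl2 changes depends on scaling: with plain library sizes, the median of all genes moved by -0.32 in Caco-2 and by -0.63 in HT-29; the calls were then 4 of the 10 genes and 7 of the 10. The TMM factors were 0.883 to 0.906 with CoCl2 and 1.11 to 1.13 in controls of Caco-2, and 0.765 to 0.774 and 1.19 to 1.20 in HT-29.

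**Figure D2:**
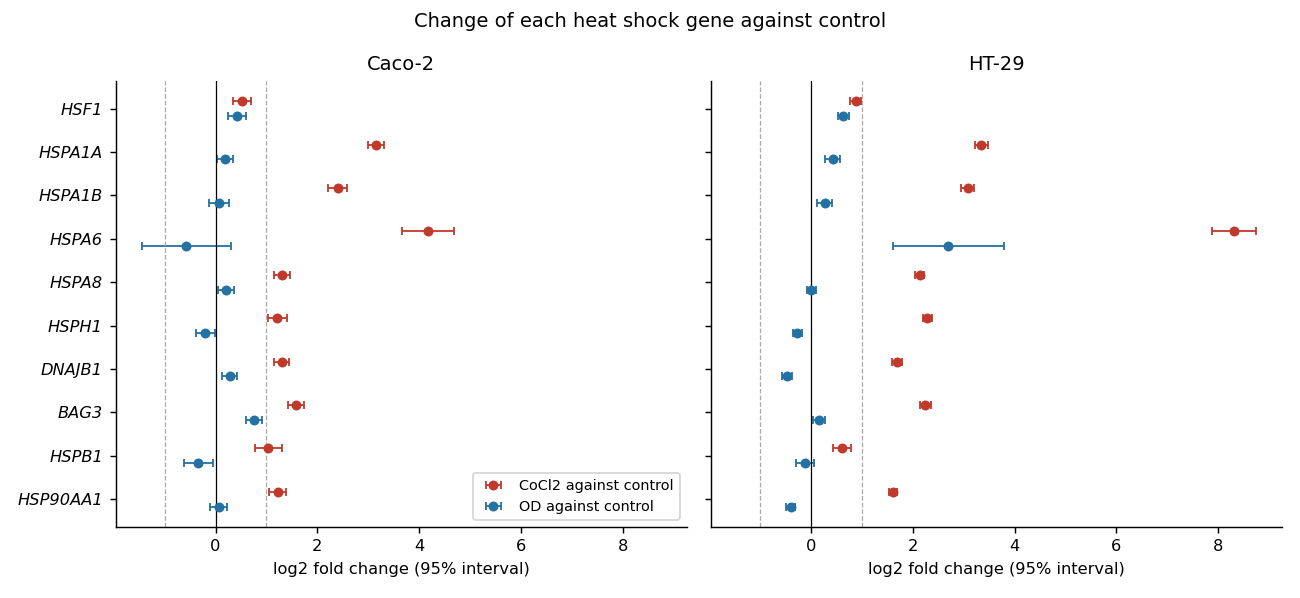
Log2 fold change against control of the 10 genes with CoCl2 (red) and OD (blue) in Caco-2 (left) and HT-29 (right); bars are 95% normal intervals from the SE of the edgeR fit, and dashed lines mark a log2 fold change of 1 either way. The CoCl2 points lie right of the OD points for all 10 genes in both lines, the HSF1 intervals overlap in Caco-2, and the HSPA6 points in HT-29 rest on controls with 1 or 2 counts.

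HSF1, the master regulator (chromosome 8, 144291591 to 144314720, plus strand), overlaps DGAT1 on the opposite strand. Its level in Caco-2 was 36.4, 36.0 and 37.5 CPM in the controls, 58.5, 48.2 and 51.5 with CoCl2, and 47.4, 48.0 and 52.4 with OD. Both treated groups stood above the controls and overlapped each other. CoCl2 gave a log2 fold change of 0.52 ± 0.09 (SE, FDR = 1.38e-05) and OD one of 0.43 ± 0.09 (FDR = 0.000293), both under the fold limit. In HT-29, HSF1 read 58.5, 56.5 and 62.2 CPM in controls, 113, 108 and 105 with CoCl2, and 89.7, 91.1 and 95.9 with OD. There the 3 groups did not overlap, and the log2 fold changes were 0.88 ± 0.05 and 0.64 ± 0.05. With plain library sizes the CoCl2 change in Caco-2 was 0.20 with an FDR of 0.0536. HSF1 is regulated largely through the protein, which these libraries do not measure.

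HSPA1A and HSPA1B encode the stress-inducible HSP70 (chromosome 6, 31815543 to 31817946 and 31827738 to 31830254, plus strand), and their proteins are almost the same. HSPA1A in Caco-2 went from 35.0, 34.01 and 34.6 CPM in controls to 308, 318 and 298 with CoCl2, and was 38.1, 36.8 and 43.0 with OD. The CoCl2 libraries were far above both other groups, which lay close together without overlapping, and overlapped with plain library sizes. CoCl2 gave a log2 fold change of 3.16 ± 0.08 (FDR = 1.35e-21), and OD one of 0.18 ± 0.08 (FDR = 0.0619). HSPA1B was 23.3, 21.6 and 25.9 CPM in these controls, 122, 132 and 120.45 with CoCl2, and 21.1, 27.3 and 26.1 with OD. Its OD libraries overlapped the controls, with log2 fold changes of 2.40 ± 0.10 for CoCl2 and 0.07 ± 0.10 for OD (FDR = 0.574).

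In HT-29, HSPA1A rose from 24.3, 19.7 and 19.3 CPM to 212, 219 and 202 in the CoCl2 libraries and 29.2, 25.8 and 29.0 in the OD libraries. HSPA1B rose from 24.3, 23.7 and 22.0 CPM to 199, 215 and 176, and to 27.1, 27.2 and 29.9 with OD. On TMM-scaled levels every treated library was above every control for both genes. With plain library sizes the OD libraries of both genes overlapped the controls. The log2 fold changes of HSPA1A and HSPA1B were 3.34 ± 0.07 and 3.08 ± 0.07 with CoCl2, and 0.43 ± 0.07 and 0.27 ± 0.07 with OD (FDR = 4.14e-06 and 0.00155), so that the OD rise was under the fold limit, and with plain library sizes that of HSPA1B was 0.14 (FDR = 0.0943). Among 75-base windows of the HSPA1A transcript, 73.8% also occur in HSPA1B, and how the authors treated reads that fit both genes is not given in the sources used here. With both genes summed, the log2 fold changes with CoCl2 came to 2.90 ± 0.08 for Caco-2 and 3.21 ± 0.06 for HT-29. With OD they were 0.14 ± 0.08 (FDR = 0.133) and 0.34 ± 0.06.

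The split between the twins was itself measured in each library. HSPA1A took 57.2% to 61.2% of their joint reads in Caco-2 controls, 70.7% to 71.7% with CoCl2 and 57.4% to 64.4% with OD. In HT-29 the shares were 45.3% to 50.0%, 50.5% to 53.5% and 48.7% to 51.9%. The CoCl2 libraries lay above the controls in both lines, by 11.7 percentage points of the mean in Caco-2 and by 4.55 in HT-29. An exact permutation test over libraries, two-sided, gave p = 0.1 in each line, the smallest that 3 against 3 allows, and p = 0.4 and p = 0.3 with OD. The shared stretches make these shares uncertain as levels of the 2 genes.

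**Figure D3:**
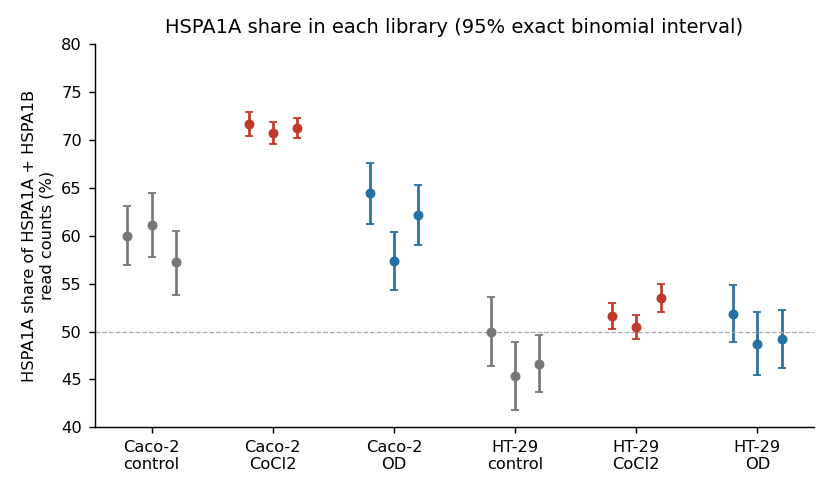
Share of HSPA1A among the reads counted for HSPA1A and HSPA1B in each of the 18 libraries, in percent (axis from 40 to 80); bars are 95% exact binomial intervals and cover counting error only. The Caco-2 libraries with CoCl2 lie between 70.7% and 71.7%, above the other groups.

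HSPA6 encodes HSP70B', a strictly stress-inducible HSP70 that is scarcely made in unstressed cells (chromosome 1, 161524540 to 161526894, plus strand). It had 10, 9 and 10 counts in Caco-2 controls, 129, 189 and 182 with CoCl2, and 7, 3 and 9 with OD. In HT-29 it had 1, 1 and 2 counts in controls, 304, 354 and 276 with CoCl2, and 9, 7 and 10 with OD. The CoCl2 libraries stood far above all others in both lines. OD libraries lay above the controls in HT-29 and overlapped them in Caco-2. For CoCl2 in Caco-2 the log2 fold change was 4.18 ± 0.26, and the ratio of summed counts per depth was 18.1, with a 95% counting interval of 12.5 to 27.4. The same ratio in HT-29 was 353 (137 to 1300) with CoCl2 and 7.10 (2.46 to 28.0) with OD, over 4 control counts in all. For OD in Caco-2 it was 0.667 (0.354 to 1.23). The filter asked for 0.577 CPM in HT-29 and 0.657 CPM in Caco-2 in at least 3 libraries, which HSPA6 reached in 3 CoCl2 libraries of each line, 2 Caco-2 controls and 0 OD libraries, so these values are a description. The OD call in HT-29 rests on 26 counts over 3 libraries, and 35.3% of its 75-base windows are also in HSPA7. It is not listed in the deposited log2 table.

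HSPA8 encodes HSC70, the constitutive HSP70 of the cytosol (chromosome 11, 123057489 to 123063230, minus strand), and holds 2 runs of 3 heat shock units in the sequence printed above. It was the most abundant of the 10, with 1898, 1952 and 2058 CPM in Caco-2 controls, 4681, 4932 and 4983 with CoCl2 and 2496, 2150 and 2141 with OD. On TMM-scaled levels every treated library exceeded the controls, CoCl2 by a wide gap. Log2 fold changes were 1.30 ± 0.08 and 0.20 ± 0.08 (FDR = 0.0360 for OD). The OD rise missed the limit with plain library sizes (0.04, FDR = 0.587) and without control replicate 1 or 2 or OD replicate 1 (FDR = 0.102 to 0.136). The limit was also missed with limma-trend (FDR = 0.1045), a mean count of at least 50 (FDR = 0.108) and a replicate block (FDR = 0.0544). In HT-29 it was 1456, 1315 and 1322 CPM in controls, 6027, 6009 and 5985 with CoCl2, and 1381, 1316 and 1419 with OD. Here OD and control overlapped, with a log2 fold change of 0.01 ± 0.04 whose sign turned with other scalings (-0.13 with plain library sizes), while that of CoCl2 was 2.14 ± 0.05.

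HSPH1, or HSP110, exchanges the nucleotide of HSP70 and helps to dissolve aggregates (chromosome 13, 31134973 to 31162388, minus strand). In Caco-2 it read 147, 139 and 164 CPM in controls, 281, 357 and 404 with CoCl2, and 133, 131 and 128 with OD. OD libraries lay just below the controls, with a log2 fold change of -0.20 ± 0.10 that missed the limit (FDR = 0.0884) and passed it with plain library sizes (-0.35, FDR = 0.00445), and CoCl2 gave 1.21 ± 0.10. In HT-29 its controls were at 258, 244 and 255 CPM, CoCl2 at 1235, 1247 and 1218, and OD at 217, 202 and 210.3. HSPH1 thus rose with CoCl2 (2.29 ± 0.04) and fell with OD (-0.27 ± 0.04, FDR = 1.05e-06), with no overlap among the 3 groups.

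DNAJB1, the main inducible HSP40 (chromosome 19, 14514769 to 14560391, minus strand), overlaps TECR on the opposite strand. Its levels in Caco-2 were 98.0, 102 and 98.2 CPM in controls, 245, 244 and 247 with CoCl2, and 132, 122 and 109 with OD. It rose with both agents there, by 1.30 ± 0.08 and 0.28 ± 0.08 (log2; FDR = 0.00269 for OD). The OD value was 0.13 with plain library sizes and missed the limit (FDR = 0.1245). In HT-29 it was 95.3, 105 and 101 CPM in controls, 334, 329 and 309.6 with CoCl2, and 74.4, 69.3 and 73.4 with OD. On TMM-scaled levels no libraries overlapped between groups in either line. In HT-29 the gene rose with CoCl2 by 1.69 ± 0.05 and fell with OD (-0.47 ± 0.05, FDR = 6.74e-11).

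BAG3 joins HSP70 to small heat shock proteins and to selective autophagy (chromosome 10, 119651380 to 119677819, plus strand). In Caco-2 it stood at 35.9, 36.4 and 34.7 CPM in controls, 114, 104 and 104 with CoCl2, and 61.8, 59.9 and 58.3 with OD. The 3 groups were well apart, and the OD change, 0.75 ± 0.08 (FDR = 1.89e-08), was the highest log2 fold change of the 10 genes with OD in Caco-2. CoCl2 gave 1.59 ± 0.08. In HT-29, BAG3 was 32.1, 29.9 and 29.4 CPM in controls, 146, 147 and 139 with CoCl2, and 32.4, 34.3 and 35.3 with OD. The OD libraries were only just above the controls (0.16 ± 0.06, FDR = 0.0152), whereas CoCl2 gave 2.24 ± 0.05. This OD change missed the limit with plain library sizes (0.03, FDR = 0.704) and without control replicate 2 or 3 or OD replicate 3 (FDR = 0.0506 to 0.0743). The limit was also missed with DESeq2 (FDR = 0.0919), no low count filter (FDR = 0.0695) and all 18 libraries in one fit (FDR = 0.0716).

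HSPB1, or HSP27, is a small heat shock protein that also acts on actin filaments (chromosome 7, 76302673 to 76304295, plus strand). It counted 9.90, 12.8 and 10.5 CPM in Caco-2 controls, 26.9, 19.3 and 22.2 with CoCl2, and 9.69, 8.83 and 7.76 with OD. In HT-29 the values were 31.9, 30.3 and 27.7, then 52.9, 42.9 and 40.2 with CoCl2, and 24.8, 29.7 and 28.0 with OD. CoCl2 libraries were above the controls in both lines, but less clearly than for the other chaperones. The Caco-2 log2 fold change, 1.04 ± 0.14 (FDR = 3.04e-07), sat at the fold limit and lost its call without control replicate 1 (0.96) or CoCl2 replicate 1 (0.92), with limma-trend (0.91), with a mean count of at least 50 (0.9944) and with plain library sizes (0.72). HT-29 gave 0.61 ± 0.09 (FDR = 2.50e-06), which was -0.03 (FDR = 0.7995) with plain library sizes. OD gave -0.33 ± 0.15 and -0.12 ± 0.09, neither past the FDR limit, and both passed it with plain library sizes, at -0.49 (FDR = 0.00921) and -0.25 (FDR = 0.0271).

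HSP90AA1 encodes the inducible HSP90 of the cytosol (chromosome 14, 102080742 to 102139699, minus strand). It was 767, 781 and 831 CPM in Caco-2 controls, 1689, 1909 and 1940 with CoCl2, and 955, 792 and 742 with OD. OD overlapped the controls (0.07 ± 0.09, FDR = 0.548), and CoCl2 gave a log2 fold change of 1.22 ± 0.09. In HT-29 it read 695, 705 and 728 CPM in controls, 2158, 2141 and 2201 with CoCl2, and 565, 522 and 530 with OD. There it rose with CoCl2 by 1.61 ± 0.04 and fell with OD (-0.40 ± 0.04, FDR = 8.69e-11). HSPH1, DNAJB1 and HSP90AA1 were the 3 genes that fell with OD in HT-29.

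Levels between genes were compared per length, in RPKM (reads scaled to depth and transcript length) from the deposited log2 table, which lists 9 of the genes and was normalised within each line. In Caco-2 controls HSPA8 led with 414 ± 16.6 (SD, n = 3), followed by HSP90AA1 at 159 ± 6.56, DNAJB1 at 27.8 ± 0.657, HSPH1 at 18.3 ± 1.54, HSPA1A at 14.7 ± 0.219, BAG3 at 13.3 ± 0.349, HSPA1B at 9.57 ± 0.863, HSPB1 at 7.51 ± 1.04 and HSF1 at 7.05 ± 0.140. Only the last pair of neighbours overlapped. With CoCl2 HSPA8 (997 ± 29.9) and HSP90AA1 (360 ± 25.5) still led, and HSPA1A moved from rank 5 to rank 3 with 127 ± 4.03. With OD, BAG3 came before HSPA1A and HSPH1, and the ranges of the last pair overlapped.

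In HT-29 controls the order was HSPA8 at 290 ± 16.8 RPKM, HSP90AA1 at 143 ± 3.30, HSPH1 at 31.0 ± 0.889, DNAJB1 at 28.4 ± 1.42, HSPB1 at 20.5 ± 1.47, then HSF1 and BAG3 both at 11.5, HSPA1B at 9.56 ± 0.484 and HSPA1A at 9.04 ± 1.19. The ranges of HSF1 and BAG3 overlapped, as did those of HSPA1B and HSPA1A. With CoCl2 HSPH1 reached 142 ± 1.22 and stayed at rank 3, and DNAJB1 (85.8 ± 3.20), HSPA1A (85.0 ± 3.16) and HSPA1B (75.5 ± 7.33) followed with overlapping neighbours. HSPA1A was last in the HT-29 controls and at rank 5 with CoCl2. With OD the 2 inducible HSP70 genes had the lowest means of the 9, at 11.8 ± 0.783 and 11.3 ± 0.633, and overlapped each other, and the range of BAG3 (12.6 ± 0.538) overlapped that of HSPA1A.

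The second question was whether the agents differed from each other. CoCl2 at 300 µM and OD at 5 µM were set side by side in each line, so the dose differs with the agent. On TMM-scaled levels, CoCl2 libraries were above OD libraries for 9 of the 10 genes in Caco-2, HSF1 being the overlap. In HT-29 they were above for all 10, which for HSF1 and HSPB1 depends on scaling, as given below. The share of all genes lying apart in this way was not counted. In Caco-2, 8 were called higher than with OD, against 5.19% of all genes, and 9 passed the FDR alone, against 24.4%. In HT-29, 8 were called higher against 10.8%, and 10 passed the FDR alone against 37.1%. The median log2 difference of the 10 was 1.26 in Caco-2 and 2.15 in HT-29, against -0.01 and -0.07 over all genes. Without HSPA6 it was 1.15 and 2.13.

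The largest log2 differences between agents, apart from HSPA6, were those of the inducible HSP70 genes. HSPA1A differed by 2.97 ± 0.08 in Caco-2 (FDR = 2.16e-20) and by 2.91 ± 0.06 in HT-29, and HSPA1B by 2.33 ± 0.10 and 2.81 ± 0.06. HSPA6 differed by 4.75 ± 0.28 in Caco-2 and by 5.61 ± 0.17 in HT-29, on 3 to 10 counts per OD library. The cochaperones spread more: BAG3 differed by 0.84 ± 0.08 in Caco-2, under the fold limit, and by 2.08 ± 0.05 in HT-29, and DNAJB1 by 1.02 ± 0.07 and 2.16 ± 0.05. DNAJB1 in Caco-2 was at the limit and fell to 0.95 without OD replicate 3. HSPH1 differed by 1.41 ± 0.10 and 2.56 ± 0.05.

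HSF1 was the exception. In Caco-2 its log2 difference between CoCl2 and OD was 0.10, with a 95% interval of -0.08 to 0.27 (FDR = 0.379). In HT-29 it was 0.24 (0.14 to 0.34, FDR = 5.60e-05), which turned to -0.26 with plain library sizes (FDR = 1.93e-05), so its direction depends on scaling. HSPB1 in HT-29 differed by 0.72 ± 0.09, under the fold limit. Over the alternative settings its lowest value was 0.23 and its highest FDR 0.0389. With plain library sizes its CoCl2 and OD libraries overlapped.

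Both lines were then compared in their responses, over all 18 libraries, as HT-29 treated minus control less the same in Caco-2. For CoCl2, 8 of the 10 genes responded more in HT-29 and 1 less at an FDR under 0.05, where 21.1% and 28.6% of 17921 genes did. Without HSPA6, 7 of 9 responded more and 1 less. Only HSPA6 was called beyond the fold limit, against 7.81% of all genes, and its difference rests on HT-29 controls with 1 or 2 counts. HSPH1 was next, with a log2 difference of 0.97 ± 0.11 (FDR = 4.49e-09), and passed the fold limit without Caco-2 control replicate 2 (1.02) or Caco-2 CoCl2 replicate 3 (1.09). HSPA8 followed with 0.73 ± 0.09, HSPA1B with 0.57 ± 0.12 and BAG3 with 0.55 ± 0.09. HSP90AA1 (0.28 ± 0.10), DNAJB1 (0.28 ± 0.09) and HSF1 (0.25 ± 0.10) differed less, and HSF1 had an FDR of 0.0389. With plain library sizes these 3 did not pass, at 0.08 (FDR = 0.479), 0.07 (FDR = 0.502) and 0.05 (FDR = 0.745). HSP90AA1 also missed the limit without Caco-2 control replicate 3 or HT-29 CoCl2 replicate 3 (FDR = 0.0580 and 0.0571), and HSF1 without any 1 of 9 of the 12 libraries (FDR = 0.0582 to 0.144). HSPA1A differed by 0.07, with an interval of -0.13 to 0.28 (FDR = 0.594), and HSPA1A and HSPA1B summed by 0.20 ± 0.10 (FDR = 0.0826). HSPB1 went the other way, at -0.54 ± 0.16 (FDR = 0.00530), and with DESeq2 at -0.44 (FDR = 0.0569). The median of all genes in this comparison was -0.13 and moved by -0.20 with plain library sizes.

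For OD, 1 gene responded more in HT-29 and 3 less at an FDR under 0.05, where 20.9% and 21.9% of all genes did, and 1 was called higher, against 8.96%. The called gene was again HSPA6, whose HT-29 controls had 1 or 2 counts per library. Among the other 9 genes, 0 responded more and 3 less. Those with the smaller response in HT-29 were DNAJB1 (-0.78 ± 0.09, FDR = 5.55e-09), BAG3 (-0.61 ± 0.10, FDR = 2.36e-06) and HSP90AA1 (-0.48 ± 0.10, FDR = 0.000148). DNAJB1 fell with OD in HT-29, and its rise in Caco-2 did not pass with plain library sizes.

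Between the controls, 3 of the 10 genes were higher in HT-29 and 3 lower at an FDR under 0.05, where 39.5% and 39.6% of all genes were, and 1 was called each way, against 21.6% and 24.2%. HSPB1 was called higher, at 33.1, 31.6 and 29.2 CPM in HT-29 and 9.72, 12.6 and 10.4 in Caco-2 (log2 difference 1.52 ± 0.12, FDR = 1.79e-14), scaled over all 18 libraries. HSPA6 was called lower, on 4 counts in HT-29 and 29 in Caco-2. HSPH1 (0.84 ± 0.08) and HSF1 (0.78 ± 0.07) were higher in HT-29, and HSPA1A (-0.64 ± 0.08) and HSPA8 (-0.44 ± 0.07) were lower, all under the fold limit.

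The 10 genes also varied together across the 9 libraries of a line. Pearson's r of log2 CPM among the 9 genes other than HSF1 ran from 0.732 to 0.994 over the 36 pairs in Caco-2, and from 0.851 to 0.999 in HT-29. For pairs with HSF1 it ran from 0.433 to 0.883 and from 0.543 to 0.848. The 9 libraries share their treatment groups, so these values describe the gap between CoCl2 and the rest. Among 9259 genes, the patterns most like HSPA1A in both lines (ranked by the lower r) were those of HMOX1 (0.998 in each), PSMB2, CLPB, HSPA1B and NAA25, and those most like HSPA8 were PSMD2, CREM, DAP3, UBFD1 and PSMD13.

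To place the 10 genes among other chaperones, 60 further genes in 8 lists were read out in the same fits. With CoCl2 in Caco-2, 6 of 55 tested were called higher and 2 lower, against 9.13% and 14.2% of all genes, with a median log2 fold change of 0.43. In HT-29, CoCl2 called 17 of 54 higher and 2 lower, against 17.4% and 23.9%, with a median of 0.68. OD called 0 higher and 2 lower in Caco-2, against 4.42% and 7.27% of all genes, and 6 higher and 0 lower in HT-29, against 9.45% and 7.58%. DESeq2 gave the same zeros, and at an unadjusted p under 0.05 edgeR had 14 higher with OD in Caco-2 and 23 lower in HT-29. The 10 heat shock genes had higher medians with CoCl2 than the 55 and 54 genes of these lists that were tested. Members and lists were chosen with earlier results of these data known, so this contrast is only a description. Between agents, 4 were higher and 3 lower with CoCl2 than with OD in Caco-2, against 5.19% and 6.41%, and 15 and 3 in HT-29, against 10.8% and 19.2%.

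Among the lists, J-domain cochaperones had 2 of 8 genes called higher with CoCl2 in Caco-2 and 6 of 8 in HT-29. Of all genes, 9.13% and 17.4% were called higher there, which is the share to set beside each list. DNAJB4, a partner of HSP70, changed by 1.49 ± 0.14 and 2.86 ± 0.07 (log2), and DNAJA1 was called in HT-29 at 2.13 ± 0.05. Of 10 genes of the HSP90 system, 1 and 5 were called higher, and 1 was called lower in HT-29, where 23.9% of all genes were. HSP90AB1, the constitutive HSP90 beside HSP90AA1, changed by 1.33 ± 0.09 and 2.03 ± 0.04. The small heat shock gene HSPB8, a partner of BAG3, changed by 2.12 ± 0.14 in Caco-2. The 8 subunits of TRiC/CCT, the ring that folds actin and tubulin, had 0 genes called by edgeR with either agent against control in either line. Their log2 fold changes ran from -0.68 to 0.93, and at an unadjusted p under 0.05 the counts higher and lower were 4 and 1 with CoCl2 in each line, 1 and 1 with OD in Caco-2, and 0 and 7 with OD in HT-29.

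The mitochondrial and endoplasmic reticulum (ER) list had 3 of 8 genes called higher with CoCl2 in HT-29 and 1 of 8 in Caco-2. Of all genes, 17.4% and 9.13% were. OD called 2 of the 8 higher in HT-29 and 0 in Caco-2, against 9.45% and 4.42% of all genes. The median log2 fold change of the list with OD in HT-29 was 0.07. There HSPA5, the HSP70 of the ER (also BiP), changed by 1.93 ± 0.07 (FDR = 6.97e-14) and HYOU1, its exchange factor, by 1.30 ± 0.04 (FDR = 6.21e-27). The other 6 ran from -0.69 (SERPINH1, the collagen chaperone, FDR = 1.87e-15) to 0.87 (HSP90B1, the HSP90 of the ER), both named after their values were seen. HSF4, another member of the HSF family, changed by 1.18 ± 0.08 with OD in HT-29. The OD responses of HYOU1 and HSPA5 exceeded those in Caco-2 by 1.502 ± 0.083 and 1.47 ± 0.11 (log2).

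**Figure D4:**
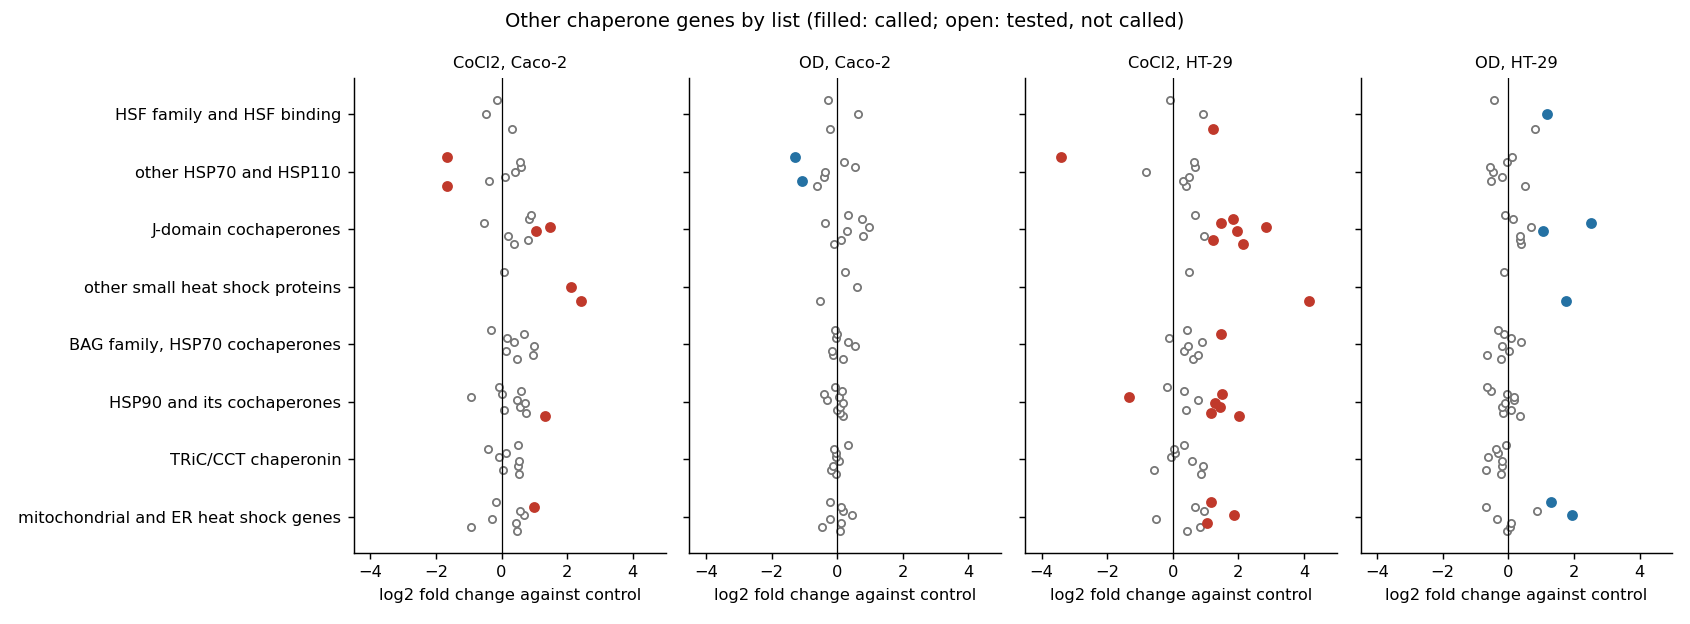
Log2 fold change against control of 60 other chaperone genes in 8 lists, where tested; each point is a gene, filled when called and open when not, with 1 panel per agent and line. The J-domain list lies mostly to the right with CoCl2 in HT-29, and TRiC/CCT has no filled point.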

How the data were processed

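The 18 mRNA libraries were grouped by the sample labels (cell line and treatment, 3 replicates each); 0 per-sample columns were left without a sample, and the miRNA tables were not used. Per the methods and the submitters' processing notes, mRNA was sequenced with a stranded kit, adapters were cut with cutadapt 2.10, STAR 2.7.5b aligned reads to GRCh38, and genes were counted on GENCODE; the counting tool and its strand setting are not given in the sources used here. The deposited files hold unnormalised counts for each gene and log2 values that, recomputed from the counts, equals log2(RPKM + 1) with TMM scaling within a line.

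Counts were tested with edgeR 4.0.16 (R 4.3.3; TMM, filterByExpr, robust quasi-likelihood F test, two-sided), each line fitted alone over its 9 libraries and line differences over all 18. SE is the log2 fold change divided by the root of F. The study used DESeq2 with the same thresholds, run here as an alternative (1.42.0), as were limma-trend (3.58.1) on the log2 values, other scalings and filters, a replicate block and left-out libraries. The fit was checked on simulated counts. Total counts ran from 12925719 to 22332639. Intervals of the HSPA1A shares and HSPA6 ratios, and floors (3 counts per library), cover counting error only, since reads carried no molecular identifiers. Intervals of log2 fold changes come from the SE of the edgeR fit and also take in the spread between replicates. Replicates are called biological in the series' design text. Shared 75-base windows and coordinates come from GENCODE v44 on GRCh38. All 10 members are named; from each comparison up to 3 genes of the other lists may be named, the largest called changes with a mean count of at least 100, and the 5 genes most like HSPA1A and HSPA8. The members and lists were chosen with earlier results of these data known.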

Additional observations from a re-analysis of the deposited data

Results flagged for a closer look

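Several genes responded differently in HT-29 and Caco-2 by the interaction test over all 18 libraries (edgeR, FDR under 0.05). With CoCl2 the log2 difference, HT-29 minus Caco-2, was 4.02 for HSPA6, 0.97 for HSPH1, 0.73 for HSPA8, 0.57 for HSPA1B, 0.55 for BAG3, 0.28 for HSP90AA1, 0.28 for DNAJB1, 0.25 for HSF1 and -0.54 for HSPB1. With OD it was 3.25 for HSPA6, -0.78 for DNAJB1, -0.61 for BAG3 and -0.48 for HSP90AA1. The HSPA6 values rest on HT-29 controls with 1 or 2 counts per library and depend on the prior count of the fit. Line, medium and differentiation cannot be told apart in these differences. With plain library sizes HSP90AA1, DNAJB1 and HSF1 did not pass with CoCl2 (0.08, 0.07 and 0.05, FDR = 0.479, 0.502 and 0.745), and with DESeq2 HSPB1 did not (FDR = 0.0569).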

How the results depend on the processing

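Of the log2 fold changes of single genes under all alternatives, 1406 kept direction and side of the call limits, 36 gained and 15 lost a call, and 18 changed sign. With plain library sizes the members called with CoCl2 in Caco-2 went from 9 to 4 and those called between agents in Caco-2 from 8 to 5. Signs turned there for HSPA1B (-0.0778) and HSP90AA1 (-0.0912) with OD in Caco-2, HSF1 between agents (-0.0720 in Caco-2, -0.257 in HT-29), HSPB1 with CoCl2 in HT-29 (-0.0265), HSPA8 with OD in HT-29 (-0.13) and the line difference of HSPA1A with CoCl2 (-0.13). HSPA8 with OD in HT-29 was also -0.0119 with DESeq2 size factors, -0.0117 with DESeq2, -0.00735 with a mean count of at least 50, -0.00531 with all 18 libraries in one fit and -0.01445 with limma-trend. Leaving out 1 library moved it from -0.0193 to 0.0550, and moved HSP90AA1 with OD in Caco-2 from -0.0471 (without OD replicate 1) to 0.147. HSPA1B between the controls was -0.00235 with DESeq2 size factors and -0.00140 with DESeq2.

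With no fold limit the members called were 4 and 8 for OD in Caco-2 and HT-29, 9 and 4 for the line differences with CoCl2 and OD, and 6 between the controls. The limma-trend fit called 0 for OD in HT-29, where HSPA6 is not listed. DESeq2 and its size factors each called 2 for the CoCl2 line difference, HSPH1 being added. Leaving out 1 library gave 8 to 9 members for CoCl2 in Caco-2, 7 to 8 between agents in Caco-2 and 1 to 2 for the CoCl2 line difference, and moved no other count of members.

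The same-numbered replicates deviated from their group means with correlations from -0.0554 to 0.0676, so the numbers do not pair the samples; with a replicate block the members called were 9, 0 and 8 in Caco-2 (CoCl2, OD, between agents), 8, 1 and 8 in HT-29, and 1 and 1 for the line differences, and no such fit was made between the controls. Over all genes, CoCl2 in Caco-2 called 3745, with 1098 by limma-trend, 2012 with a mean count of at least 50 and 10375 with no fold limit; the split was 1464 higher and 2281 lower, and 865 and 3544 with plain library sizes. The other chaperone genes called, outside left-out libraries, ranged from 3 to 41 for CoCl2 in Caco-2, 12 to 47 in HT-29, 0 to 23 and 2 to 41 for OD, 2 to 39 and 11 to 51 between agents, 9 to 37 and 5 to 31 for the line differences, and 15 to 41 between controls. The causes were not tested. At these depths HSPA6 in HT-29 controls (1, 1 and 2 counts) was under the floor of 3 counts per library.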
